A study of Homo sapiens with 4 samples.

Results

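Antisense transcripts are RNAs made from the DNA strand opposite to a gene, usually a protein-coding one, and many lie across that gene or start next to it. In the deposited RNA-seq table of MDA-MB-231 cells, 918 of 43596 transcripts carry the type antisense once the rows of SNHG genes, GAS5 and ZFAS1 are left out, and they belong to 678 genes. Another 14 antisense rows, of 5 such host genes, were set aside. Where an antisense gene is named after a gene X as X-AS with a number, it was paired with the protein_coding rows of X, which gave 189 pairs with 188 sense genes.

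MDA-MB-231 is an established human triple-negative breast cancer line with mesenchymal features. The cells were treated for 24 h with DMSO, the solvent, or with 10 µM KH-3, a small-molecule inhibitor of the RNA-binding protein HuR, and 2 biological replicates of each condition were sequenced from an mRNA library kit. The table gives each transcript 1 mean normalized read count, averaged by the authors over libraries that are not named in the sources used here, so every level below is the authors' mean with no error of its own. Cells given 5 µM KH-3 appear in the methods too; they were not analysed here as a group, and it is not known if the printed means include them. No column belongs to a single library or a single condition, and the columns of the authors' own KH-3 against DMSO comparison were not used. The sequencing depth and the spread between replicates are therefore unknown, no response to KH-3 is reported, and no level is tested.

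Of the 6 markers expected in this line, all were listed, and the protein_coding rows of VIM, CD44, AXL, EGFR, FOSL1 and CAV1 summed to between 1837 and 12188 mean normalized reads. ESR1, PGR and CDH1, expected to be low, had no protein_coding row. EPCAM at 71.1 and GATA3 at 83.5 lay at percentile 20.1 and 22.1 of the genes with such rows, whereas KRT19, an epithelial keratin also expected to be low, lay at percentile 84.7 with 1410.

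Antisense RNAs act in several ways that are well established. Some are transcribed from a shared promoter in the direction away from the sense gene, some silence or activate nearby chromatin, as KCNQ1OT1 does in an imprinted domain, and others leave the site of transcription and bind proteins or microRNAs. HuR, encoded by ELAVL1, binds U-rich and AU-rich stretches of RNA, of which the pentamer AUUUA is the classic element. OIP5-AS1, the human counterpart of the cyrano transcript, is one antisense RNA known to bind HuR.

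The stretches of DNA that separate an antisense start from the start of its sense gene are shown first, because 83 of the 189 pairs had start sites that face away from each other at most 1 kb apart. The 4 shown are among the 6 pairs with the highest antisense level per kb whose starts lie over 40 and at most 200 bases apart and whose intervening DNA touches no exon of a protein-coding transcript. Each run is the hg38 reference between the nearest facing-away start sites of the listed transcripts, read 5′ to 3′ along the sense strand, so the sense gene begins after the last base and the antisense transcript runs leftward from before the first. Capitals mark GGGCGG, the GC box, and CCAAT, the CCAAT box, on either strand.
THAP9-AS1 and THAP9, chr4:82900570-82900734, sense strand plus: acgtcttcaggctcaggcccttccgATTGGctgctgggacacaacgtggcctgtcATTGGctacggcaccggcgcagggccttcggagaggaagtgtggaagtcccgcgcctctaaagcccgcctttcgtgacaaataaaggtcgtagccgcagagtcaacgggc
ZEB1-AS1 and ZEB1, chr10:31319070-31319124, sense strand plus: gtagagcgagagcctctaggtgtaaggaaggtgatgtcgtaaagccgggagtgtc
UBA6-AS1 and UBA6, chr4:67701156-67701278, sense strand minus: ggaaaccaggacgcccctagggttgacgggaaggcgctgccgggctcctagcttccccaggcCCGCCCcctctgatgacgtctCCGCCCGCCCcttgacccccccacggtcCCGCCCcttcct
RNASEH1-AS1 and RNASEH1, chr2:3558334-3558418, sense strand minus: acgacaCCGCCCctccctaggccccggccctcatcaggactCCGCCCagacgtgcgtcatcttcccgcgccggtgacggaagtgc

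The windows differ in these letters. The UBA6 window of 123 bases holds 4 GC boxes and no CCAAT box, the RNASEH1 window of 85 bases holds 2 GC boxes, and the THAP9 window of 165 bases holds 2 CCAAT boxes and no GC box. The ZEB1 window of 55 bases holds none of these letters. The TATA box letters TATAAA were in none of the 4 windows. G and C make up between 54.5% of the ZEB1 window and 72.4% of the UBA6 window.

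Antisense transcripts took up few reads. They were 2.11% of the listed transcripts and held 0.424% of the summed mean normalized read count. Their median was 19.2, with quartiles of 11.4 and 40.6, against 21.0 for 1068 lincRNA transcripts and 91.3 for 26348 protein_coding transcripts. Since lengths differ, levels were also taken per kb of transcript. On that scale the medians were 16.6 for antisense, 18.8 for lincRNA, 26.5 for processed_transcript and 35.9 for protein_coding rows. Antisense transcripts had a median length of 1420 bases against 2656 for protein_coding rows. The lowest mean listed is 7.34, so transcripts below it are missing from each type and the medians describe listed rows only. That minimum is not divided by length, so a short transcript needs a higher level per kb to be listed than a long one. The per-kb medians of types that differ in length are therefore not fully comparable, and the same applies to the pair ratios below.

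**Figure D1:**
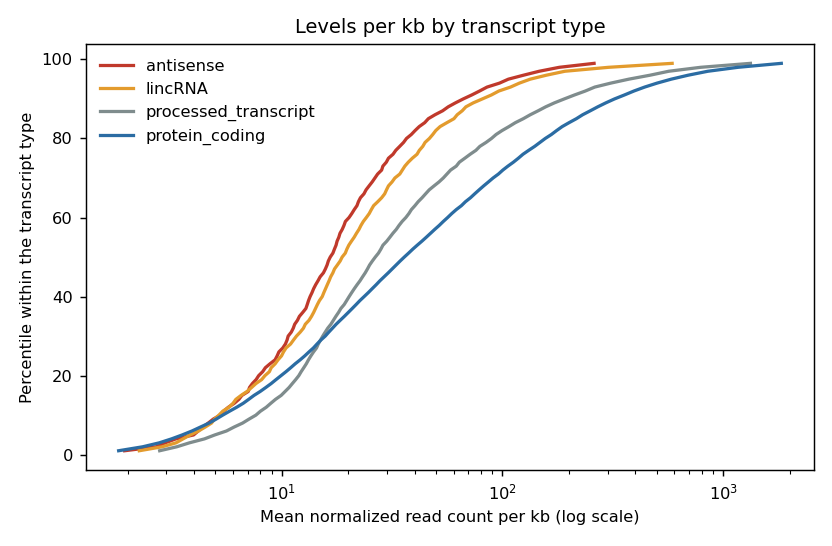
Levels per kb (x axis, mean normalized read count divided by transcript length in kb, log scale) against the percentile within each transcript type (y axis), from percentile 1 to 99. The antisense curve lies left of the protein_coding curve over most of its range, with medians of 16.6 and 35.9, and close to the lincRNA curve with a median of 18.8.

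A mean of at least 100 reads, not divided by length, was reached by 83 antisense transcripts, 9.04% of them. The share was 12.2% of lincRNA, 19.4% of processed_transcript and 48.2% of protein_coding transcripts. Only 6 antisense transcripts passed 1000. Summed per gene, the 33 highest of the 678 genes together reached 50% of the antisense total, and the first 10 genes held 33.4%. Most genes were listed with a single transcript, and 145 had more than 1.

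**Figure D2:**
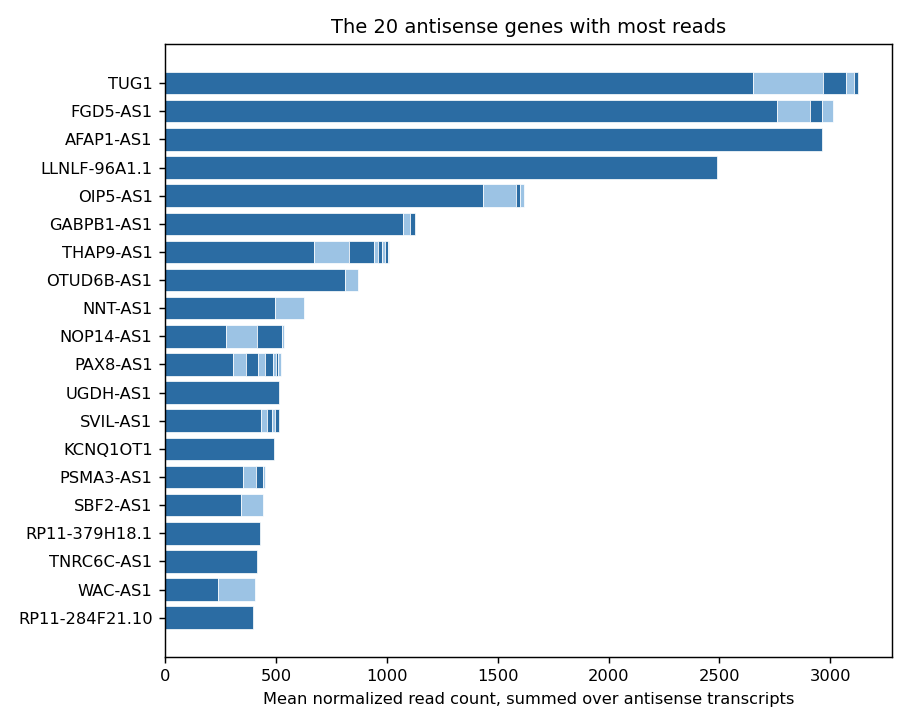
The 20 antisense genes with most reads, with the mean normalized read count summed over their antisense transcripts on the x axis. Each bar is split into its transcripts in alternating shades; TUG1, FGD5-AS1, AFAP1-AS1 and LLNLF-96A1.1 lead with 3124, 3014, 2962 and 2487, and in each of the 20 bars 1 transcript holds over 50% of the reads.

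TUG1, a long RNA that has been tied to Polycomb complexes and to cytoplasmic roles, headed the antisense genes with a summed mean normalized read count of 3124 over 5 transcripts, 84.9% of it in ENST00000519077.3. Release 24 files it under antisense, and in release 44 its listed main transcript on chromosome 22, from 30969472 to 30978848 on the plus strand, overlaps no protein-coding gene on the other strand. FGD5-AS1 on chromosome 3 followed with 3014 reads over 4 transcripts. Its main transcript ENST00000424349.1, with 2758 reads, shares no exon base with a protein-coding gene of the other strand, and FGD5 itself had no protein_coding row. AFAP1-AS1, a transcript known for high levels in many carcinomas, had 2962 reads in its single listed transcript.

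LLNLF-96A1.1 on chromosome 19, from 35557928 to 35581960, had 2487 reads on a transcript of only 494 bases. Per kb it was therefore far above every other member, with 5035 mean normalized reads per kb against 874 for FGD5-AS1, the next. Its exons share no base with a protein-coding exon of the opposite strand, although its body overlaps ATP4A, the gastric proton pump, which had no protein_coding row. Which reads gave this level could not be examined.

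OIP5-AS1 had 1620 reads over 4 transcripts, GABPB1-AS1 had 1126 over 3, THAP9-AS1 had 1011 over 8 and OTUD6B-AS1 had 869 over 2. NNT-AS1 with 627 and NOP14-AS1 with 535 completed the first 10 genes. Length changed this order. GABPB1-AS1 had 95.4% of its reads in a transcript of 16182 bases, and per kb its summed level was 124, below the 551 of THAP9-AS1 and the 387 of OTUD6B-AS1. KCNQ1OT1, listed as 1 transcript of 91667 bases, had 488 reads but only 5.33 per kb.

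Name pairs set each antisense gene beside the mRNA of its sense gene. Summed per gene and per kb, the antisense genes of the pairs had a median of 20.4 mean normalized reads per kb and their sense genes 120. The median log2 ratio of antisense to sense was -2.38, with quartiles of -4.30 and -0.21, so that the median antisense gene stood at 19.2% of its sense gene. This value depends on the scale and the minimum: the median log2 ratio was -3.40 without division by length, and -0.74 over the 45 pairs left with a mean of at least 50. That minimum kept 20.6% of antisense but 61.6% of protein_coding transcripts, so the pairs left are chosen for high antisense levels. Antisense exceeded sense in 43 of 189 pairs, and in 114 pairs the levels were within 10-fold of each other. The sense genes were of ordinary level, with a median of 122 per kb against 117 for all 12120 genes with protein_coding rows.

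**Figure D3:**
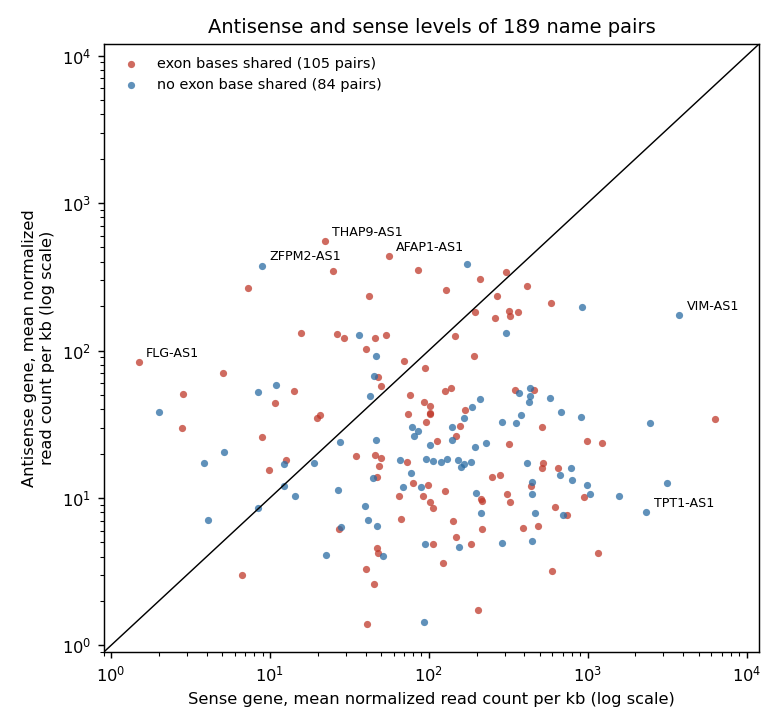
Each point is 1 of 189 name pairs, with the sense gene on the x axis and the antisense gene on the y axis, both as summed mean normalized read count per kb on log scales, and the line marking equal levels. Points are red where the antisense transcripts share exon bases with the sense gene (105 pairs) and blue where they share none (84 pairs); 43 pairs lie above the line.

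High sense levels did not go with high antisense levels across pairs. The Spearman correlation of the per-kb levels was -0.08 over 189 pairs, all from the same mean column. It was -0.14 over the 105 pairs that share exon bases and 0.06 over the 84 that share none. These are descriptions across genes, which are not independent replicates, and both members of a pair had to pass the listing minimum to be seen.

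In the pairs with the highest antisense to sense ratio, the mRNA had a low listed level and the antisense RNA a higher one. FLG-AS1 led, with 226 reads in 3 transcripts, while FLG, which encodes the epidermal protein filaggrin, had 19.1 in 1 much longer transcript, so that the antisense level per kb was 55.8-fold the sense level. ZFPM2-AS1 followed with 377 per kb against 8.97 for ZFPM2, a cofactor of GATA factors. ENTPD1-AS1 had 264 per kb against 7.33 for ENTPD1, the ectonucleotidase CD39. THAP9-AS1 had 551 per kb against 22.3 for THAP9, a gene derived from a DNA transposase. ENTPD1-AS1 shares 4609 exonic bases with ENTPD1, FLG-AS1 shares 704 with FLG and THAP9-AS1 shares 148 with THAP9, summed over their transcripts. ZFPM2-AS1 shares none with ZFPM2. It is not known if the counting used the strand of the reads, so levels that rest on shared stretches may belong to either gene.

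The other 6 of the first 10 pairs by ratio were SCOC-AS1, ATP2A1-AS1, PRKG1-AS1, LRRC75A-AS1, EML2-AS1 and PAX8-AS1, with log2 ratios from 4.27 down to 3.07. The sense mRNAs of these pairs had at most 24.8 reads per kb. Some lay near the listing minimum of 7.34, with 7.84 reads for EML2, 10.1 for ATP2A1 and 10.2 for SCOC. SCOC-AS1 shares no exonic base with its sense gene, and the others share between 53 for PRKG1-AS1 and 1693 for LRRC75A-AS1, summed over transcripts. PAX8 encodes a transcription factor of thyroid and kidney, ATP2A1 the calcium pump of fast muscle and PRKG1 a cGMP-dependent kinase. LRRC75A-AS1, with 344 reads per kb over 9 transcripts, carries the symbol SNHG29 in release 44 and so is a snoRNA host under a newer name. AFAP1-AS1 was next, with 436 per kb against 56.1 for AFAP1, an actin filament-associated protein.

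At the other end, the sense mRNAs were abundant and the antisense RNAs had few reads. TPT1-AS1 had 27.6 reads, or 7.99 per kb, against 2344 per kb for TPT1, the translationally controlled tumour protein, a log2 ratio of -8.20. MORF4L2-AS1 had 8.82 reads, TM4SF1-AS1 had 9.57 and PITRM1-AS1 had 12.8, with log2 ratios of -8.10, -7.97 and -7.55. Sense exceeded antisense by over 100-fold in 7 pairs. MORF4L2-AS1 and TM4SF1-AS1 lay near the listing minimum of 7.34. Pairs with antisense RNAs below that minimum are not listed, so it bounds both the lowest ratios and this count.

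How the pair lies in the genome was read from the most abundant listed transcript of each side in release 44. In 84 pairs, 44.4%, the antisense start lay upstream of the sense start and the transcripts ran apart. In 45 pairs the 5′ ends overlapped, in 27 the 3′ ends overlapped, in 15 the antisense transcript lay inside the sense transcript, in 4 the reverse held, and in 14 the antisense transcript lay downstream without overlap of these transcripts. No pair had both members on the same strand.

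**Figure D4:**
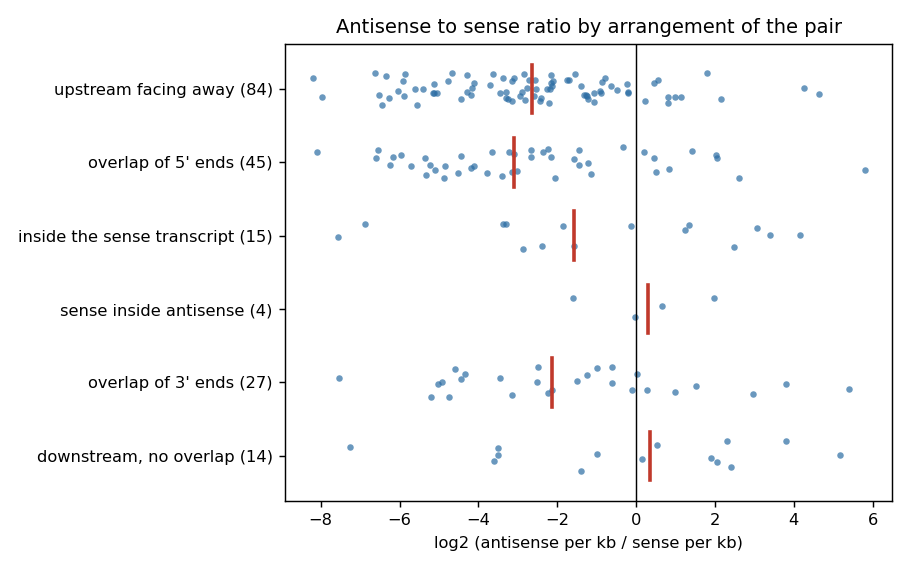
The log2 ratio of antisense to sense level per kb (x axis) for each name pair, grouped by how the most abundant transcripts of the pair lie to each other (y axis, number of pairs in brackets). Red bars are medians, from -3.09 for overlapping 5′ ends to 0.34 for antisense transcripts downstream of the sense transcript, and the points of single pairs spread widely around them.

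Pairs that run apart had a median log2 ratio of -2.64, and antisense was above sense in 11 of 84. Pairs with overlapping 5′ ends had a median of -3.09, those with overlapping 3′ ends -2.14 and those inside the sense transcript -1.57. The 14 downstream pairs had a median of 0.34, with antisense above sense in 8. Of these 14 pairs, 10 share exon bases when all listed antisense transcripts are set against all protein-coding transcripts of the sense gene. So do 40 of the 45 pairs with overlapping 5′ ends and 23 of the 84 that run apart. The 4 pairs with the sense transcript inside the antisense transcript had a median of 0.31 and quartiles of -0.43 and 0.98, above the upper quartiles of the pairs that run apart, -1.07, and of those with overlapping 5′ ends, -1.22. The groups of 4, 14 and 15 pairs are small.

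The 83 pairs were chosen for starts facing away at most 1 kb apart, with the nearest starts over all listed transcripts taken. Short distances are therefore partly built in, and pairs facing away over longer distances, such as JMJD1C-AS1 at 196163 bases, are left out. Limits of 0.5 kb and 2 kb gave 74 and 88 pairs. The median distance between the start sites was 140 bases with quartiles of 82.5 and 257.5, and 55 of the 83 were at most 200 bases apart. Within this group 10 antisense genes were above their sense gene. OTUD6B-AS1, at 387 reads per kb, starts 4 bases from OTUD6B, a deubiquitinase gene at 174 per kb.

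**Figure D5:**
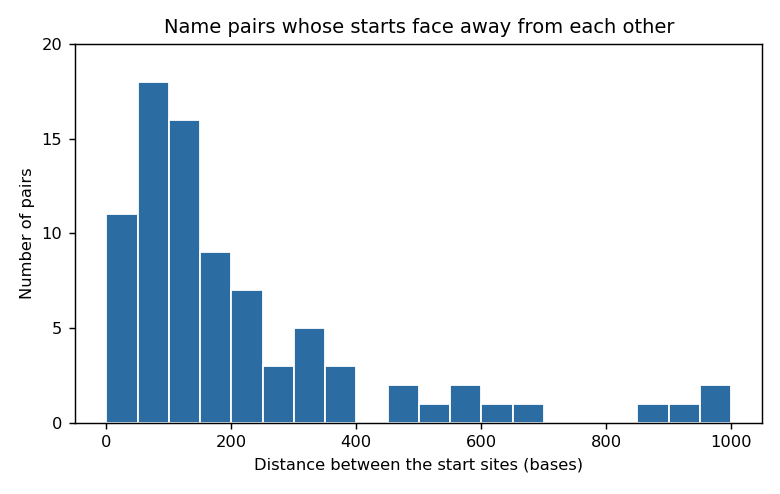
Distances in bases between the nearest antisense and sense start sites (x axis, bins of 50 bases) for the 83 name pairs whose starts face away from each other within 1 kb, with the number of pairs on the y axis. The bins below 200 bases hold most of the pairs, and the median is 140 bases.

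The windows shown above belong to pairs of both kinds. THAP9-AS1, RNASEH1-AS1 and ZEB1-AS1 were above their sense genes, RNASEH1-AS1 with 127 reads per kb against 36.2 for RNASEH1, which encodes an RNase H that removes RNA from RNA-DNA hybrids. ZEB1-AS1 had 92.4 per kb against 46.7 for ZEB1, a repressor of epithelial genes in EMT. UBA6-AS1 had 131 per kb against 306 for UBA6, a ubiquitin-activating enzyme.

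Promoters of the members were read from RefSeq (GRCh38.p14), from 250 bases before to 50 after the gene start, and 362 antisense genes were matched by symbol. The GC box GGGCGG, on either strand, was in 63.0% of them, against 44.6% of all 27305 promoters, 44.4% of the 171 matched lincRNA genes and 70.8% of the protein-coding genes of the table. The median GC content was 65.0% for the antisense genes, 59.3% for the lincRNA genes and 65.3% for the protein-coding genes. The CCAAT box was in 32.3% against 35.7% of all promoters, 40.4% of the lincRNA genes and 36.7% of the protein-coding genes. TATAAA was in 6.35% against 12.0% of all promoters, 10.5% of the lincRNA genes and 5.47% of the protein-coding genes. Divergent pairs gave 47 of these promoters, with GGGCGG in 61.7%, and other pairs 82, with GGGCGG in 53.7%. Matches of letters are not binding sites.

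Overlap between the strands decides which reads can be told apart. In release 44, 908 of the 918 transcripts were found by ID, and 452 of them, 49.8%, share at least 1 exonic base with a protein-coding transcript of the other strand. Among these the median shared stretch was 251.5 bases, or 16.2% of the transcript, and in 59 it covered more than 50%. Whether the authors' counting used the strand of the reads is not given in the sources used here. If it did not, reads of a shared stretch cannot be assigned to either gene. The median level was 19.1 reads for transcripts with shared exon bases and 19.3 for those without.

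By pair, the antisense gene was above the sense gene in 29 of the 105 pairs that share exon bases and in 14 of the 84 that share none. The median log2 ratios were -1.55 and -2.79. AFAP1-AS1 shares 471 exonic bases with AFAP1 and NOP14-AS1 shares 1270 with NOP14, summed over its 4 transcripts. ENTPD1-AS1 shares 4609 with ENTPD1 summed over 3 transcripts, and protein-coding exons of the other strand cover between 61.1% and 90.1% of each of them. ZFPM2-AS1, OTUD6B-AS1, ZEB1-AS1 and RNASEH1-AS1 share none.

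Exon number also describes the members. With 1 exon there were 178 transcripts, 19.6%, with 2 exons 283 and with 3 exons 192, and the highest number was 27. Transcripts with 6 exons numbered 36 and those with 7 numbered 19.

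AUUUA, written ATTTA in the reference, was counted on the transcript strand of the release 44 sequences because HuR binds AU-rich RNA. It was in 70.0% of 908 antisense, 69.7% of 1056 lincRNA and 76.3% of 25445 protein_coding transcripts. Per kb of sequence there were 1.32, 1.51 and 1.41 occurrences. In transcripts of 500 to 1000 bases, which removes most of the difference in length, the shares were 46.8%, 46.8% and 41.6%. The longer element TATTTAT was in 17.8% of antisense and 33.0% of protein_coding transcripts, which are longer, but at 500 to 1000 bases in 7.66% of 248 antisense and 6.20% of 3323 protein_coding transcripts.

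Among transcripts with a mean of at least 100, OIP5-AS1 had the most copies of the longer element. Its main transcript ENST00000500949.6, with 1434 reads, holds ATTTA 21 times and TATTTAT 6 times in 8881 bases. The main transcript of GABPB1-AS1 holds ATTTA 29 times but TATTTAT 1 time in 16182 bases. The densest 60-base windows of 2 abundant members that touch no protein-coding exon are shown with ATTTA in capitals, from the transcript strand.
FGD5-AS1, chr3:14945063-14945122, minus strand: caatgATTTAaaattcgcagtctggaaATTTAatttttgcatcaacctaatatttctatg
NNT-AS1, chr5:43574472-43574531, minus strand: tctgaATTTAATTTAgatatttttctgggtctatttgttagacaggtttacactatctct

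Both windows hold 2 copies of ATTTA, apart from each other in FGD5-AS1 and side by side in NNT-AS1. NCK1-AS1 had the most TATTTAT of all members, 13 in a release 44 sequence of 1860 bases, with 19.2 reads, and its release 24 length is 1194 bases. Whether HuR was bound to any of these stretches was not tested.

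RNAs studied in chromatin or cancer were looked up from a list of 35 names, of which 16 were members. Another 5 names of the list have rows of the type lincRNA in the same table, CYTOR with 583 reads, MAPKAPK5-AS1 with 218, MNX1-AS1 with 47.9, HIF1A-AS2 with 17.0 and TSIX with 14.3. Besides those above, SBF2-AS1 had 442 reads, DLEU2, the host of the miR-15a and miR-16-1 microRNAs, had 200, LOXL1-AS1 had 164 and NRAV had 153. TMPO-AS1 had 79.2, PCBP1-AS1 had 70.1 and MCM3AP-AS1 had 62.2. BACE1-AS with 9.63, TTN-AS1 with 10.5 and PXN-AS1 with 8.37 were near the listing minimum, and FOXD3-AS1 had 47.8. Of 17 antisense names of the HOX clusters, 1 was a member, HAGLR in the HOXD cluster with 368 reads, and HOTAIR had no row. The lists were matched by symbol only, so an RNA listed under another symbol would be missed.

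Among 14 antisense names formed from sense genes of EMT, HuR or mitosis, 3 were members. VIM-AS1 had 235 reads and 174 per kb, against 3786 per kb for VIM, the mesenchymal intermediate filament, a log2 ratio of -4.44. ZEB1-AS1 had 202 reads in all, 193 of them in ENST00000607166.1, and its log2 ratio was 0.98. SNAI3-AS1 had 73.5 reads, while SNAI3 had no protein_coding row. No antisense transcript named after ELAVL1, FOXQ1 or CTNNB1 was among the members. These names were looked up by symbol only, so a name without a row does not show that no antisense RNA is made there. Some of the 14 may not exist in the annotation at all, so 3 of 14 is not a rate.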

How the data were processed

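The libraries came from MDA-MB-231 cells, 2 with DMSO and 2 with 10 µM KH-3 for 24 h. The authors mapped reads with STAR to GENCODE release 24 transcripts (hg38), estimated reads per transcript with eXpress, and normalized them and compared the groups with DESeq2; versions are not given in the sources used here. Each deposited value is a signal, the mean of normalized reads that the authors took over unnamed libraries, and is not divided by length. The 3 other value columns hold the authors' log2 fold change, p-value and q-value and were not used, so no groups were compared and depth is unknown.

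Members were taken by type and gene name. Levels per kb divide the mean by the release 24 length, not an effective length, and gene levels sum the listed transcripts. Positions and sequences come from GENCODE release 44 on hg38 by transcript ID without version (98.9% of members found, 69.9% of these with equal length), and promoters from RefSeq; pairs on chromosome 8 were not considered for the shown windows. Named are the 10 antisense genes with most reads, the 10 highest and 5 lowest pair ratios, and listed members of 3 gene lists; others were named after their values were seen, and 1 pair of the lowest ratios is not reported here. The members and lists were chosen with earlier results of these data known. Functions were tested on simulated data. Tables were handled with pandas 2.3.3 and numpy 2.4.6 under Python 3.11.15, correlations came from scipy 1.17.1, and plots from matplotlib 3.10.9.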

Additional observations from a re-analysis of the deposited data

How the results depend on the processing

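No value depends on a single library that can be named, since the table has 1 mean per transcript; leaving out replicates and the test of KH-3 against DMSO could not be run. No paired analysis was possible because the table holds no values per library. With transcripts of a mean of at least 20 only, 438 antisense transcripts remained, their median level was 43.1, 106 name pairs remained with antisense above sense in 28, 215 transcripts shared exon bases, 40 pairs were divergent and 74.4% held ATTTA. With at least 50, the values were 189 transcripts, a median of 89.4, 45 pairs, antisense above sense in 16 and a median log2 ratio of -0.74. Such minima keep a smaller share of antisense than of protein_coding transcripts, so they favour pairs with high antisense levels. The median level was 23.4 summed per gene and 16.6 per kb. Levels not divided by length gave a median log2 ratio of -3.40. Among pairs without shared exon bases, antisense was above sense in 14. TATTTAT in place of ATTTA was in 17.8%. In transcripts of 500 to 1000 bases, an alternative chosen after seeing the data, ATTTA was in 46.8%. The median log2 ratio was below 0 under every alternative run.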

Other observations

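Antisense genes under clone names were not paired by name, and their partners were read from position alone. They numbered 401 genes with 462 transcripts and held 35.5% of the antisense reads. Of those found in release 44, 30.0% had a single exon, against 8.16% of the X-AS transcripts, and 53.1% against 48.9% shared exon bases with the other strand. After LLNLF-96A1.1, the highest per kb were RP11-149I23.3 with 412 reads per kb, opposite LIPA, the lysosomal acid lipase gene at 830 per kb, and RP11-676J12.7 with 388, opposite NXN, the nucleoredoxin gene at 366. CTB-25B13.12 had 362 reads per kb against 2.12 for APC2, whose exons it overlaps by 96 bases.

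For 39 of the 228 X-AS genes no protein_coding row of X was listed, and for 4 of these X had rows of other types. Their median level was 23.6 reads per kb, against 20.4 for the 189 in name pairs. FGD5-AS1 was the highest of them, followed by NUTM2A-AS1 with 334 reads. The listed TNRC6C-AS1 transcript, with 412 reads, is assigned to TMC6 in release 44, so its pairing with TNRC6C follows the older name.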
